A study of Mus musculus with 20 samples.

Results

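Heat-shock and cold-inducible genes were followed in the mouse hippocampus as a set of 10 genes given by symbol, out of 49671 genes with a count in the deposited tables. They are Hspa1a, Hspa1b, Hspa8, Hsp90aa1, Hsph1, Dnajb1, Hspb1 and Hspa5, which encode chaperones, and Cirbp and Rbm3, which encode RNA-binding proteins induced by mild cold. The list is fixed by symbol, with no threshold on measured values, and each symbol matched 1 gene. All 10 passed the filter on low counts.

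Bulk RNA sequencing was done on 20 single hippocampi, 1 from each of 20 adult male wild-type mice of 10 to 12 weeks. The control group had no tumour and received isotype-matched antibody. The group called ICI here, for immune checkpoint inhibitors, had no tumour and received anti-CTLA-4 at 1 mg per dose, 3 doses per week, and anti-PD-1 at 200 µg per dose, 2 doses per week. The melanoma group was injected intradermally on both sides with 500000 cells of the syngeneic melanoma line D4M-3A.UV2 and, after 1 week of engraftment, received isotype antibody. The melanoma plus ICI group carried the same tumours and received both checkpoint antibodies, for 3 weeks as stated for that group. All antibodies were given intraperitoneally, tissue was collected at 72 hours from the final dose, and each group held 5 mice. The tumour is 1 cell line placed in the skin, outside the brain.

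Chaperones of the Hsp70 family bind exposed hydrophobic stretches of unfolded proteins, Hsp40 partners such as Dnajb1 deliver clients and speed ATP hydrolysis, and Hsp110 proteins such as Hsph1 exchange the nucleotide. Transcription of the inducible members is driven by heat shock factor 1, which binds repeats of a short GAA unit in their promoters when misfolded protein or heat releases it from chaperones. Cirbp and Rbm3 respond to temperature the other way, rising when the body cools, and Cirbp is known to follow the daily rhythm of body temperature, while Hspa5 reports load in the endoplasmic reticulum rather than in the cytosol.

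The sequence just before the transcription start is shown for the members that have one in the tables used here, so that the motifs known from these promoters can be compared. The RefSeq promoter table, on build GRCm38.p6, held 7 of the 10 members. Hspa8, Hsp90aa1 and Rbm3 were the members with no entry. Each line gives the 250 bases before the first listed start, 5′ to 3′ on the strand of the gene, with the matched motif in capitals. The Hspa1a window is chr17:34972157-34972406 and the Hspa1b window chr17:34959239-34959488, both on the minus strand and both directly upstream of the gene. The Dnajb1 window is chr8:83607925-83608174 and the Hspb1 window chr5:135887669-135887918, both on the plus strand and upstream of the gene. The Hsph1 window is chr5:149636337-149636586 on the minus strand and overlaps the first bases of the deposited gene. The Hspa5 window is chr2:34771840-34772089 on the plus strand and overlaps the deposited gene start. The Cirbp window is chr10:80167589-80167838 on the plus strand and lies inside the deposited gene, which begins further upstream.
Hspa1a: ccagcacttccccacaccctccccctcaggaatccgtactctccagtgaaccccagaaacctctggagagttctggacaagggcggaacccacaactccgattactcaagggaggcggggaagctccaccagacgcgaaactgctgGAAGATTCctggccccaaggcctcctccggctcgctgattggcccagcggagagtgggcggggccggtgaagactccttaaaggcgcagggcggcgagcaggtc
Hspa1b: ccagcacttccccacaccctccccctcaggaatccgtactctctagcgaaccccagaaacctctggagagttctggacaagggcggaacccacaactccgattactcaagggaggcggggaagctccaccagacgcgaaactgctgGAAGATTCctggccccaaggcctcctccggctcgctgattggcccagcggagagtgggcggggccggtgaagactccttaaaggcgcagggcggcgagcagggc
Hsph1: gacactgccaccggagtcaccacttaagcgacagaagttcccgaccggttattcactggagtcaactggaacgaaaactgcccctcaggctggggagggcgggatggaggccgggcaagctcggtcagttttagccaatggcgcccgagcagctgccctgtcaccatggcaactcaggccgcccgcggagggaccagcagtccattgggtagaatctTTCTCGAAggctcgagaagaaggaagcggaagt
Dnajb1: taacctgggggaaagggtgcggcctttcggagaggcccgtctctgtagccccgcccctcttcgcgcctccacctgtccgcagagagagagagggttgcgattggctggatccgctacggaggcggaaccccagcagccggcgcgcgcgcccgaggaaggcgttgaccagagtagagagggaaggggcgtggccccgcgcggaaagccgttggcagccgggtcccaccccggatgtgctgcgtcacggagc
Hspb1: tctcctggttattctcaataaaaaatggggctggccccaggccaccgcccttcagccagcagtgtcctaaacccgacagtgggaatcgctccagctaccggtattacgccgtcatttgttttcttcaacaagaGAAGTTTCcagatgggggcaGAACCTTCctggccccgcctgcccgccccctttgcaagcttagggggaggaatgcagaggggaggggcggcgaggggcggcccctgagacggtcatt
Hspa5: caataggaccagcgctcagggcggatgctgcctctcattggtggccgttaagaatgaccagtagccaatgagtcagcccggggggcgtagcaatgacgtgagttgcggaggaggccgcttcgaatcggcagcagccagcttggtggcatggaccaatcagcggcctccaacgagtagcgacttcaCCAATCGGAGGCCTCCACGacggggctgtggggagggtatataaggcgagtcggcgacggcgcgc
Cirbp: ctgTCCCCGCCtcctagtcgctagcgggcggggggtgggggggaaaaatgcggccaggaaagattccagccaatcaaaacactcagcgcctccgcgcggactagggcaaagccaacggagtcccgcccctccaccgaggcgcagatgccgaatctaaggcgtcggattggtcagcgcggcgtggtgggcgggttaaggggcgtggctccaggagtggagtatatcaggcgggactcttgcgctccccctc

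The Hspa1a and Hspa1b windows were identical at 247 of 250 bases, or 98.8%. The capitals in both mark GAAGATTC, a match to the 2-unit heat shock element GAANNTTC or TTCNNGAA, ending 97 bases before the start. Hsph1 held TTCTCGAA, ending 26 bases before its start, and Hspb1 held a pair of such matches, ending 110 and 90 bases before the start. The Dnajb1 window held no match to any of the motifs searched and is printed without capitals. Among all 32851 promoter windows of this length in the table, 12.8% held a 2-unit match, so this motif is common by its letters alone. The 3-unit form, GAANNTTC followed by 2 free bases and a further GAA, contains the 2-unit form and occurred in 0.466% of windows and in no window of the members. The capitals in Hspa5 mark the endoplasmic reticulum stress element, CCAAT and CCACG with 9 free bases between them, which ends 47 bases before the start and which 0.113% of windows held. The capitals in Cirbp mark the mild-cold response element TCCCCGCC, ending 240 bases before the start. That element was found in 4.64% of windows, and the Hspa1a and Hspa1b windows also held it on the opposite strand, ending 130 bases before the start. Both strands were searched for each motif, and a match describes letters only.

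Library totals ran from 21990624 to 25735149 counts, so the least abundant member, Hspb1, still had 2167 counts over the 20 libraries. Summed markers listed for hippocampal neurons lay between 3784 and 5473 CPM, the unit of counts scaled to a common library size, in every library. Of that list, Snap25 and Syt1, found in neurons generally, averaged 1855 and 1333 CPM. The sum therefore does not show how much of a library was hippocampus. In the same list, Wipf3 ran from 171 to 906 CPM and Neurod6 from 56.55 to 215 CPM. Striatal markers were high in 4 libraries, melanoma replicates 1, 3 and 5 and melanoma plus ICI replicate 3, where the mean of the 8 markers was 5.42, 6.83, 5.94 and 5.72 log2 CPM. In the other libraries the highest such mean was 3.80. Fits without the 4 libraries high in striatal markers keep only replicates 2 and 4 of the melanoma group. Control replicate 4 and melanoma plus ICI replicate 1 stood apart by their share of mitochondrial counts, 5.10% and 4.28%, the highest of all, and by high Hsp90aa1. Where leaving out these libraries moved a fold change by over 1.5 times, the value without them is given beside it. In bulk tissue, fewer cells of a type and less RNA per cell cannot be told apart.

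Per kilobase of gene length as deposited, the levels of the 10 genes spanned a wide range, with the order firm at the top and loose at the bottom. Hspa8, the constitutive Hsp70 of the cytosol, stood highest at 294 ± 24.9 CPM per kb (SD, n = 20). Hsp90aa1, an Hsp90 that matures kinases and steroid receptors, followed at 184 ± 36.1 CPM per kb, then Hspa5 at 57.7 ± 7.21 and Hsph1 at 40.7 ± 4.17 CPM per kb. Cirbp at 28.1 ± 4.35, Rbm3 at 21.6 ± 3.21 and Dnajb1 at 20.1 ± 3.31 CPM per kb formed the middle of the order. Cirbp and Rbm3 did not differ beyond 1 SD, although Cirbp was the higher in 20 of 20 libraries, and neither did Rbm3 and Dnajb1, where Rbm3 was the higher in 14 of 20. The inducible Hsp70 genes and the small heat shock protein Hspb1 were the lowest. Hspa1b reached 6.32 ± 2.57, Hspb1 4.45 ± 1.23 and Hspa1a 4.42 ± 1.62 CPM per kb, and these 3 neighbours did not differ beyond 1 SD. Hspa1b was above Hspb1 in 18 of 20 libraries and Hspb1 above Hspa1a in 11 of 20.

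The genes also differed in how much single mice of one group varied. Within groups, the SD of log2 CPM was 0.39 for Hspa1b, 0.38 for Hspa1a and 0.34 for Hspb1, against a median of 0.26 over the 18427 genes tested. Hspa8 was the steadiest, at 0.12, followed by Hspa5 at 0.14 and Hsph1 at 0.15. Dnajb1, Rbm3, Cirbp and Hsp90aa1 lay between 0.18 and 0.25.

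**Figure D1:**
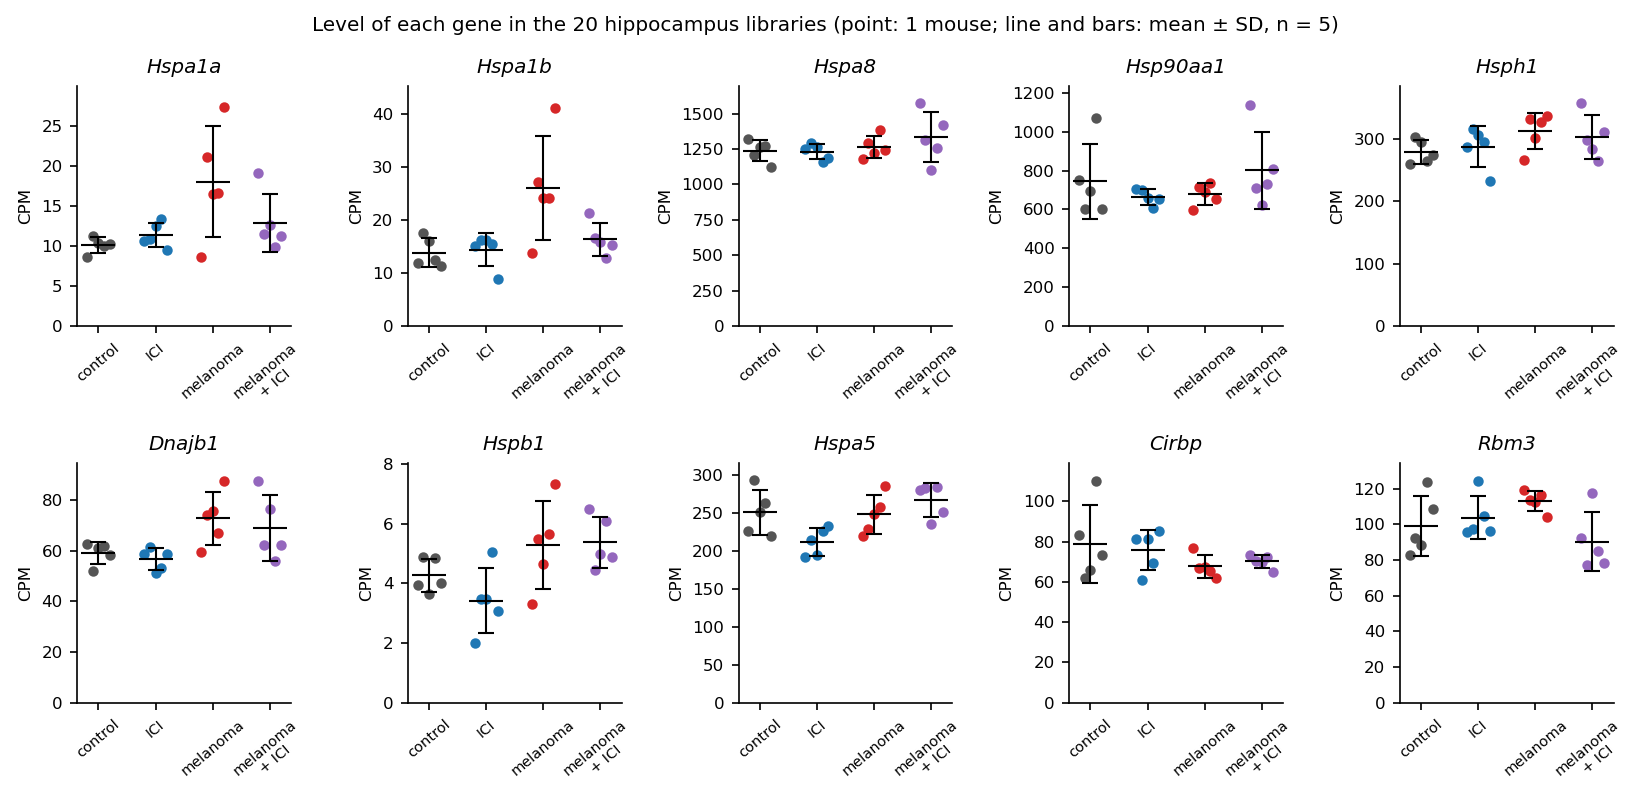
CPM (counts scaled to a common library size, linear axis from 0) of the 10 genes in each group, with 1 point per mouse and the mean ± SD of 5 mice as lines. Melanoma libraries reach 27.4 CPM for Hspa1a and 41.2 CPM for Hspa1b while 1 of the 5 stays near the controls, and all 5 melanoma plus ICI libraries lie above all 5 ICI libraries for Hspa5.

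In the edgeR quasi-likelihood fit, 0 of the 10 members and 0% of the 18427 genes tested had an adjusted p under 0.05, whichever of the 6 contrasts was read. With DESeq2 the count of members was also 0 in each contrast, while limma voom called 1 member in 1 contrast, described with Rbm3. The values that follow are therefore sizes with their errors, and an unadjusted p under 0.05 is read only against the share of all genes that reached it. Contrasts against the same control, ICI or melanoma mice share those samples.

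The inducible Hsp70 genes Hspa1a and Hspa1b, neighbours on chromosome 17 at 34969190 to 34972156 and at 34956436 to 34959238, encode almost the same stress-induced cytosolic protein. Hspa1b measured 11.9, 17.6, 16.1, 12.5 and 11.4 CPM in the control libraries and 15.1, 16.2, 16.2, 15.5 and 8.89 CPM in the ICI libraries. It measured 13.9, 27.3, 24.2, 24.3 and 41.2 CPM with melanoma and 21.3, 16.7, 15.9, 12.8 and 15.3 CPM with melanoma plus ICI. Thus 4 of 5 melanoma libraries lay above every control library and the remaining one, replicate 1, lay among them, so the groups overlapped. Hspa1a measured 8.58, 11.2, 10.4, 10.1 and 10.3 CPM in control, and 10.6, 10.9, 12.5, 13.3 and 9.51 CPM in ICI libraries. It measured 8.62, 21.2, 16.55, 16.6 and 27.4 CPM with melanoma, and 19.1, 11.45, 12.7, 9.87 and 11.25 CPM with melanoma plus ICI. The same 4 melanoma libraries exceeded all controls. For Hspa1a 4 of 5 melanoma plus ICI libraries did so too, 2 of them narrowly, with replicate 1 the highest, while for Hspa1b only replicate 1 did.

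Group means of Hspa1b were 13.9 ± 2.78 CPM in control, 14.4 ± 3.12 with ICI, 26.2 ± 9.82 with melanoma and 16.4 ± 3.11 with melanoma plus ICI (SD, n = 5). The ratio of Hspa1b to Hspa1a CPM stayed between 0.935 and 1.61 over all libraries, with a median of 1.37. Of 75-base stretches of the transcript, 54.2% for Hspa1a and 55.8% for Hspa1b also occur in another gene, Hspa1b, Hspa1a or Hspa1l, so reads could be split between them and the authors' handling of such reads is not given in the sources used here. Their summed counts avoid the split between the pair. Hspa1l, a related Hsp70 gene expressed mainly in testis, went in neither sum, and its own counts were low, at 4.29 ± 0.399 CPM in control and 2.97 ± 0.446 CPM with melanoma.

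Against control, melanoma gave 3 of 10 members at unadjusted p under 0.05, all higher, where 5.11% of all genes tested did so and 2.7% were higher. Hspa1b had a log2 fold change of 0.91 (SE 0.22, unadjusted p = 0.000632, adjusted p = 0.642 by edgeR), and its adjusted p ranged from 0.0910 to 0.999 over the alternatives. Hspa1a had a log2 fold change of 0.83 (SE 0.22, unadjusted p = 0.00124, adjusted p = 0.642). The sum of both genes gave 0.87 (SE 0.21, adjusted p = 0.645). Leaving out melanoma replicate 5, the highest library, brought Hspa1b to 0.68. Striatal markers moved with this contrast, 8 of 8 being higher at unadjusted p under 0.05, with sums of 146 to 195 CPM in control and 131 to 1296 CPM in melanoma libraries. In the same contrast 2 of 5 endothelial and 1 of 5 microglial markers were lower, and all 6 dentate gyrus markers had fitted values below 0, with a median of −0.62. All 8 choroid plexus markers were below 0, with a median of −1.44, and all 6 myelin markers above 0, with a median of 0.23, and 0 markers of these 3 lists reached unadjusted p under 0.05. The part of these cell types in the Hspa1 values was not tested. Without the 4 libraries high in striatal markers, only melanoma replicates 2 and 4 stood for that group. Hspa1b then had a log2 fold change of 0.88 (unadjusted p = 0.00133, adjusted p = 0.999) and Hspa1a 0.89. Melanoma replicates 2 and 4, with striatal means of 3.11 and 3.31 log2 CPM, had 27.3 and 24.3 CPM of Hspa1b. Replicates 1, 3 and 5, with striatal means of 5.42, 6.83 and 5.94, had 13.9, 24.2 and 41.2 CPM, so the lowest and the highest Hspa1b of the group were both in libraries high in these markers.

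In melanoma plus ICI against melanoma, 3 of 10 members reached unadjusted p under 0.05, all lower, where 5.5% of all genes did so and 2.87% were lower. Hspa1b had a log2 fold change of −0.68 (SE 0.22, unadjusted p = 0.00686) and Hspa1a one of −0.49 (SE 0.22, unadjusted p = 0.0383), with an adjusted p of 0.825 for both by edgeR. The Hspa1a value was −0.29 without melanoma replicate 5. All 8 striatal markers had fitted values below 0 in this contrast, 3 of 8 at unadjusted p under 0.05 and 0 at an adjusted p under 0.05. Their median log2 fold change was −1.14, with sums of 131 to 1296 CPM with melanoma and 137 to 670.5 CPM with melanoma plus ICI. Without the 4 libraries high in them, which leaves only replicates 2 and 4 of the melanoma group, Hspa1b was at −0.64 and Hspa1a at −0.54. The interaction, the effect of ICI with a tumour minus its effect without one, was −0.73 for Hspa1b (SE 0.32, unadjusted p = 0.0330) and −0.66 for Hspa1a (SE 0.31, unadjusted p = 0.0481), both at an adjusted p of 0.484. In that contrast 4 of 10 members reached unadjusted p under 0.05, where 10.3% of all genes did. Of the 4, 1 was higher, beside 5.99% of all genes, and 3 were lower, beside 4.28%. The count was 1 when any of 4 single libraries was left out.

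**Figure D2:**
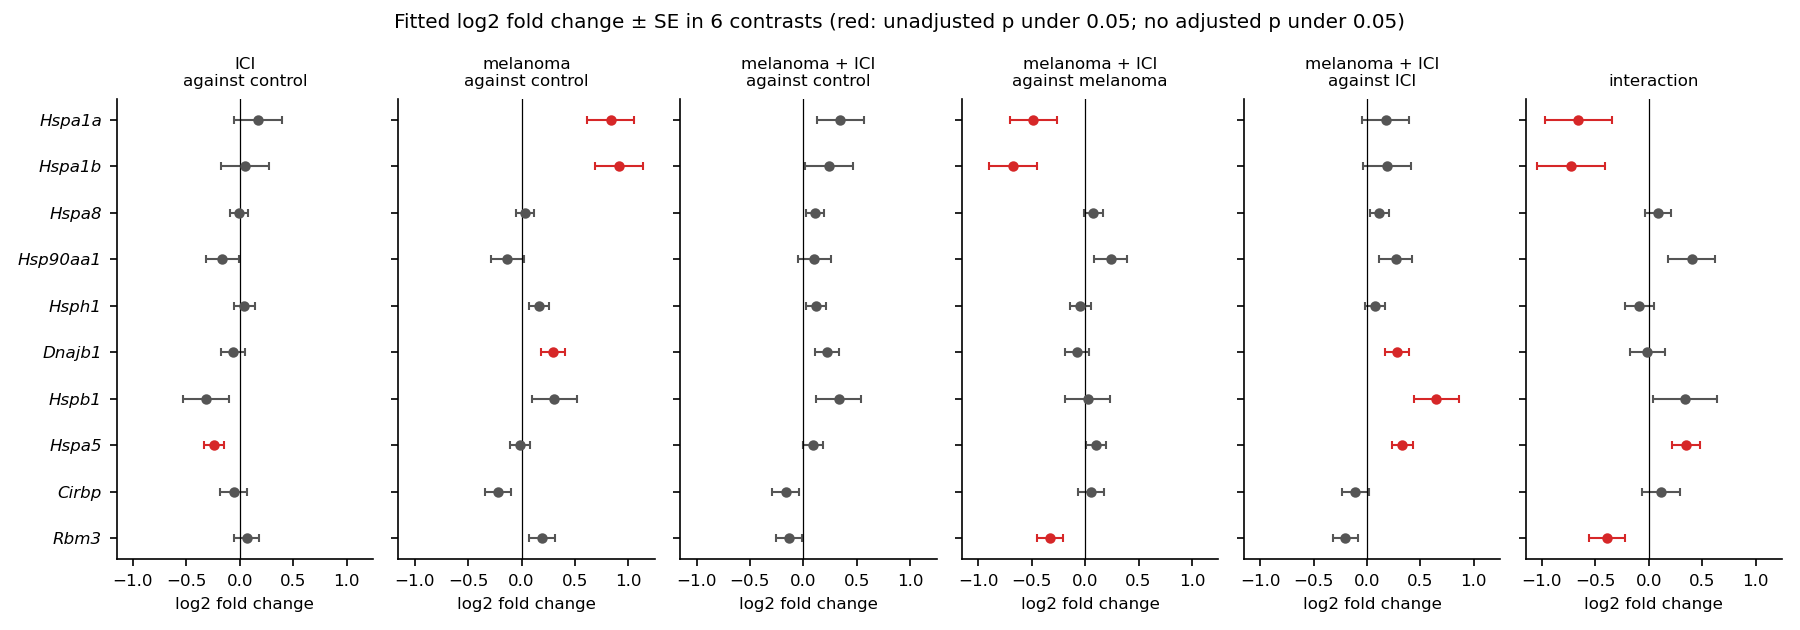
Fitted log2 fold change ± SE of each gene in the 6 contrasts, red where the unadjusted p is under 0.05. Hspa1a at 0.83 and Hspa1b at 0.91 stand highest in the melanoma against control panel, and none of the 60 values has an adjusted p under 0.05.

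The co-chaperone Dnajb1, an Hsp40 protein that loads clients on Hsp70, lies on chromosome 8 at 83608193 to 83612653. It measured 62.6, 52.1, 61.1, 61.8 and 58.4 CPM in control and 58.6, 61.6, 51.1, 53.04 and 58.7 CPM in ICI libraries. It measured 59.6, 74.1, 75.5, 67.1 and 87.3 CPM with melanoma and 87.6, 62.1, 76.6, 56.0 and 62.0 CPM with melanoma plus ICI. Again 4 of 5 melanoma libraries exceeded all controls, while only 2 of 5 melanoma plus ICI libraries did. Dnajb1 had a log2 fold change of 0.30 for melanoma against control (SE 0.11, unadjusted p = 0.0172, adjusted p = 0.877 by edgeR), which was 0.25 (unadjusted p = 0.101) without the 4 libraries high in striatal markers. Against control, melanoma plus ICI gave 0 of 10 members at unadjusted p under 0.05, beside 2.38% of all genes. Dnajb1 had the smallest p there, with 0.22 (SE 0.11, unadjusted p = 0.0695), and the value dropped to 0.11 without melanoma plus ICI replicate 1, to 0.13 without that library and control replicate 4 together, and to 0.09 with limma voom. Its transcript shares no 75-base stretch with another gene.

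Hsph1, the Hsp110 exchange factor on chromosome 5 at 149614287 to 149636376, varied little between groups. Its levels were 259, 304, 295, 264 and 274 CPM in control, and 287, 316, 306, 296 and 232 CPM in ICI libraries. They were 266, 332, 302, 327 and 336 CPM with melanoma, and 357, 298, 284, 265 and 311 CPM with melanoma plus ICI. The low melanoma library was again replicate 1, the high melanoma plus ICI library again replicate 1, and the low ICI library was replicate 5, as for Hspa1b. The log2 fold change of Hsph1 for melanoma against control was 0.16 (SE 0.096, unadjusted p = 0.105).

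The abundant chaperones had 0 contrasts at unadjusted p under 0.05. Hspa8, on chromosome 9, had group means of 1237 ± 74.1 CPM in control, 1230 ± 53.3 with ICI, 1265 ± 78.6 with melanoma and 1333 ± 178 with melanoma plus ICI, and its fitted log2 fold changes lay between −0.01 and 0.12. Hsp90aa1, on chromosome 12, had group means of 745 ± 192, 665 ± 40.4, 679 ± 55.9 and 801 ± 199 CPM in the same order. The wide SD of Hsp90aa1 in control and in melanoma plus ICI came with 1 library each, control replicate 4 at 1068 CPM and melanoma plus ICI replicate 1 at 1136 CPM. No other library exceeded 808 CPM. For both genes part of the transcript also occurs in pseudogenes, 40.9% of 75-base stretches for Hspa8 and 53.1% for Hsp90aa1.

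Hspb1, the small heat shock protein Hsp25 of mouse, holds unfolded proteins without ATP and is known from reactive glia and vessels. It lies on chromosome 5 at 135887919 to 135889563. It measured 3.96, 4.89, 3.65, 4.84 and 4.02 CPM in control and 2.02, 3.49, 3.48, 5.07 and 3.07 CPM in ICI libraries. It measured 3.32, 5.50, 4.63, 5.64 and 7.34 CPM with melanoma and 6.49, 4.44, 4.99, 6.08 and 4.89 CPM with melanoma plus ICI. Of the ICI libraries, 4 of 5 lay below every control, and every melanoma plus ICI library lay above those 4. A pseudogene, Hsp25-ps1, shares 47.3% of the 75-base stretches of Hspb1.

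Hspa5, the Hsp70 of the endoplasmic reticulum also called BiP, lies on chromosome 2 at 34771970 to 34777547 and binds nascent secretory and membrane proteins. It measured 225, 293, 250.3, 263 and 219.7 CPM in control and 192, 214, 194, 226 and 233 CPM in ICI libraries. It measured 219, 229, 248, 257 and 286 CPM with melanoma and 279, 283, 235, 284 and 250.4 CPM with melanoma plus ICI. The ICI libraries lay at the low end and 3 of 5 were below every control. All 5 melanoma plus ICI libraries lay above all 5 ICI libraries, a separation in that direction that 0.586% of all genes showed.

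In tumour-free mice, ICI against control gave 1 of 10 members at unadjusted p under 0.05, where 5.23% of all genes did so and 3.15% were lower. It was Hspa5, with a log2 fold change of −0.24 (SE 0.095, unadjusted p = 0.0187, adjusted p = 0.766 by edgeR). Among ICI-treated mice, melanoma against no melanoma gave 3 of 10 members at unadjusted p under 0.05, all higher, where 8.63% of all genes did so and 4.12% were higher. Hspa5 had a log2 fold change of 0.33 (SE 0.095, unadjusted p = 0.00225), Hspb1 one of 0.65 (SE 0.21, unadjusted p = 0.00646) and Dnajb1 one of 0.28 (SE 0.11, unadjusted p = 0.0220), each at an adjusted p of 0.563 by edgeR. The Dnajb1 value was 0.18 (unadjusted p = 0.110) without melanoma plus ICI replicate 1, 0.185 without that library and control replicate 4 together, and 0.13 (unadjusted p = 0.208) with limma voom. Without the 4 libraries high in striatal markers, Hspa5 was at 0.38, Hspb1 at 0.68 and Dnajb1 at 0.25. The interaction was 0.35 for Hspa5 (SE 0.13, unadjusted p = 0.0175, adjusted p = 0.484). ICI against control and melanoma plus ICI against ICI share the ICI mice, so their opposite signs for Hspa5 are not separate observations.

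The other genes of the endoplasmic reticulum were read from a list of 23 chaperones and stress regulators, all tested. In ICI against control, 5 of 23 reached unadjusted p under 0.05, all lower, beside 3.15% of all genes lower, and the median log2 fold change was −0.14 against −0.01 over all genes. Those with the smallest p were Pdia6, a disulphide isomerase, at −0.27 (SE 0.078), Hsp90b1, the Hsp90 of this compartment, at −0.29 (SE 0.090), and Calr, a lectin chaperone for glycoproteins, at −0.27 (SE 0.087). In melanoma plus ICI against ICI, 6 of 23 reached it, all higher, beside 4.12% of all genes higher, with a median of 0.17 against 0.02. Pdia6 was at 0.34 (SE 0.078), Hsp90b1 at 0.35 (SE 0.090) and Calr at 0.26 (SE 0.087), and no gene of the list passed an adjusted p of 0.05, the smallest being 0.563. In levels, Hsp90b1 was at 316 ± 28.0 CPM in control, 258 ± 18.6 with ICI, 275 ± 19.2 with melanoma and 329 ± 42.5 with melanoma plus ICI. In melanoma against control, 2 of 23 were lower and 0 higher, beside 5.11% of all genes in either direction, with a median of −0.03, Calr being at −0.22 (SE 0.087) and Hsp90b1 at −0.20 (SE 0.090). In melanoma plus ICI against melanoma, 5 of 23 were higher and 0 lower, beside 5.5% of all genes in either direction, with a median of 0.03. In melanoma plus ICI against control, 0 of 23 reached it in either direction, beside 2.38% of all genes, with a median of 0.03. In the interaction, 6 of 23 were higher and 0 lower, beside 5.99% of all genes higher, with a median of 0.20.

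Markers of other cell types and regions were read in ICI against control and in melanoma plus ICI against ICI, and none had an adjusted p under 0.05. In ICI against control, 3 of 5 endothelial, 1 of 7 meningeal, 1 of 5 red blood cell and 0 of 8 choroid plexus markers were lower at unadjusted p under 0.05, beside 3.15% of all genes. Every marker of these 4 lists had a fitted value below 0. Endothelial markers summed to 197 to 238 CPM in control and 147 to 188.5 CPM with ICI, meningeal markers to 101.5 to 289 against 59.1 to 232 CPM, and red blood cell markers to 11.1 to 46.7 against 1.501 to 18.2 CPM. Of microglial markers 1 of 5 was lower at unadjusted p under 0.05. All 6 myelin and all 6 neocortex markers had fitted values below 0, with medians of −0.28 and −0.33. All 6 dentate gyrus markers were above 0, with a median of 0.18, and 0 markers of these last 3 lists reached unadjusted p under 0.05. In melanoma plus ICI against ICI, 5 of 7 meningeal, 3 of 5 endothelial, 1 of 5 red blood cell and 0 of 8 choroid plexus markers were higher at unadjusted p under 0.05, beside 4.12% of all genes. Their summed levels were 59.1 to 232 CPM with ICI and 137 to 432 CPM with melanoma plus ICI for meninges, and 147 to 188.5 against 181 to 261 CPM for endothelium. Red blood cell markers summed to 1.501 to 18.2 CPM with ICI and 9.12 to 39.8 CPM with melanoma plus ICI, and choroid plexus markers to 23.04 to 2222 against 69.0 to 6592 CPM. In the same contrast 5 of 6 dentate gyrus markers and 2 of 6 hippocampal neuron markers were lower and 2 of 6 neocortex markers higher at unadjusted p under 0.05, beside 8.63% of all genes in either direction. The median log2 fold change of the dentate gyrus markers was −1.15, and their sums were 217 to 773 CPM with ICI and 106 to 320.2 CPM with melanoma plus ICI. In the interaction, 4 of 8 choroid plexus and 5 of 7 meningeal markers were higher at unadjusted p under 0.05, beside 5.99% of all genes. So were 3 of 5 endothelial, 2 of 6 neocortex and 1 of 5 microglial markers. Lower there were 2 of 6 hippocampal neuron markers, beside 4.28% of all genes. None of these markers was at 0 in any library. Their part in the Hspa5, Hspb1 and Dnajb1 values and in the interaction of any member was not tested. Dnajb1 had r = −0.60 with the dentate gyrus score (permutation p = 0.00515, adjusted p = 0.112 over 130 relations, rho = −0.71, −0.50 without the 2 libraries farthest from the median). It had r = 0.59 with the neocortex score (permutation p = 0.00646, adjusted p = 0.117, rho = 0.53, 0.36 without the 2 farthest). With the striatum score it had r = 0.54 (permutation p = 0.0131, adjusted p = 0.135, rho = 0.49, 0.29 without the 2 farthest), and with the red blood cell score r = 0.54 (permutation p = 0.0135, adjusted p = 0.135, rho = 0.50, 0.52 without the 2 farthest). Across the 20 libraries, Hspb1 had r = 0.71 with the red blood cell score (permutation p = 0.00066, adjusted p = 0.0576, rho = 0.55, 0.50 without the 2 libraries farthest from the median). Hspa5 had r = 0.61 with the red blood cell score (permutation p = 0.00303, adjusted p = 0.0788, rho = 0.35, 0.23 without those 2) and r = 0.56 with the meninges score (permutation p = 0.0113, adjusted p = 0.135, rho = 0.48, 0.36 without those 2).

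**Figure D3:**
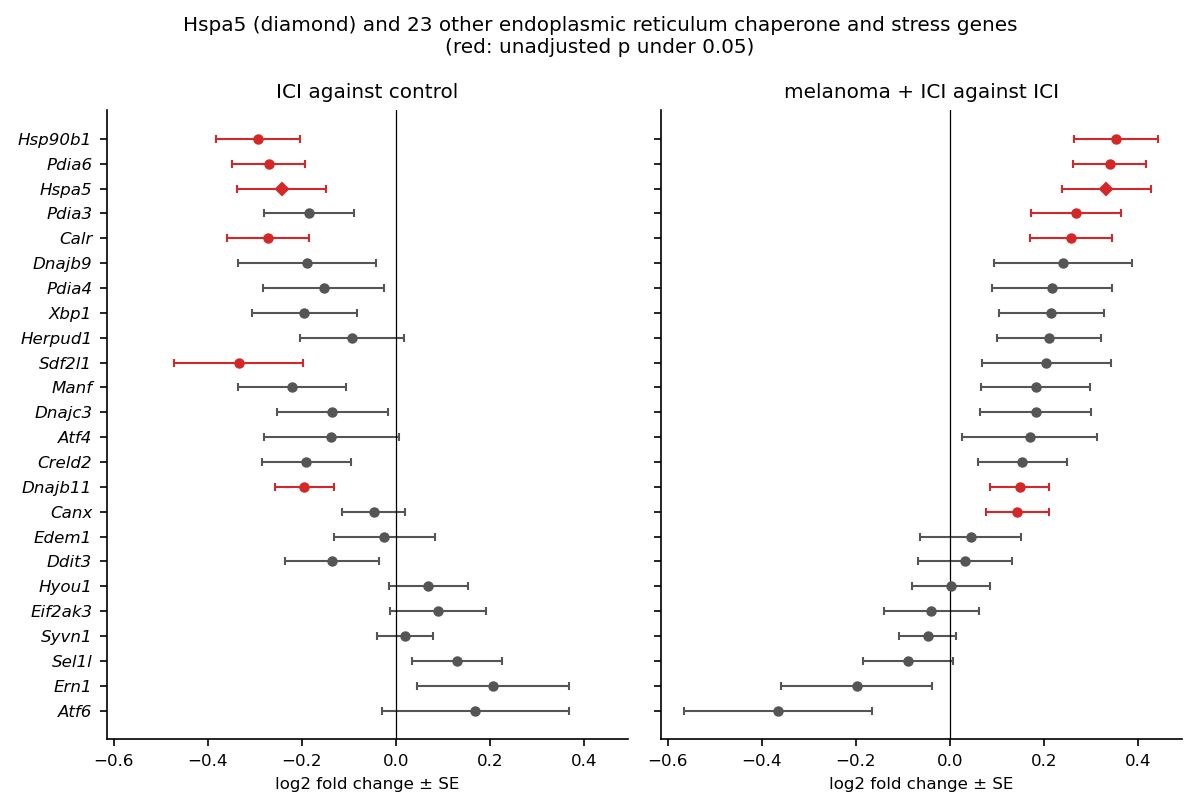
Fitted log2 fold change ± SE of Hspa5 (diamond) and 23 other endoplasmic reticulum genes, red where the unadjusted p is under 0.05. In ICI against control 5 of the 23 are red and all lie below 0, and in melanoma plus ICI against ICI 6 are red and all lie above 0; the ICI mice are in both panels.

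The cold-inducible genes belong to one family of small RNA-binding proteins. Cirbp, on chromosome 10 at 80165985 to 80172786, encodes a glycine-rich RNA-binding protein that stabilises target transcripts. It measured 83.1, 61.8, 66.2, 110.1 and 73.2 CPM in control and 81.4, 61.2, 81.4, 69.5 and 85.3 CPM in ICI libraries. It measured 76.8, 67.1, 67.3, 65.3 and 61.9 CPM with melanoma and 73.2, 70.6, 70.1, 72.2 and 65.1 CPM with melanoma plus ICI. Tumour-free mice spanned 61.2 to 110.1 CPM and tumour-bearing mice only 61.9 to 76.8 CPM, all inside the range of the former. The log2 fold change for melanoma against control was −0.22 (SE 0.13, unadjusted p = 0.0934).

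Rbm3, on the X chromosome at 8138975 to 8145880, encodes a relative of Cirbp known to protect synapses in the cooled brain. It measured 82.6, 92.3, 88.7, 124 and 109 CPM in control and 95.5, 97.6, 125, 105 and 96.5 CPM in ICI libraries. It measured 119, 114, 112.5, 116 and 104.3 CPM with melanoma and 92.6, 77.5, 118, 85.2 and 78.4 CPM with melanoma plus ICI. Melanoma libraries were tightly grouped, and 4 of 5 melanoma plus ICI libraries lay below all of them, with replicate 3 in their range. Rbm3 had a log2 fold change of −0.33 for melanoma plus ICI against melanoma (SE 0.12, unadjusted p = 0.0131, adjusted p = 0.825 by edgeR), and the interaction was −0.39 (SE 0.17, unadjusted p = 0.0320, adjusted p = 0.484). Without the 4 libraries high in striatal markers, which leaves only replicates 2 and 4 of the melanoma group, these values were −0.46 and −0.52. With limma voom and quality weights the value for melanoma plus ICI against melanoma was −0.44 with an adjusted p of 0.0450, the one member past the threshold in any alternative, and the adjusted p over the alternatives ranged from 0.0450 to 0.987. Across libraries, Rbm3 had r = −0.67 with the meninges score (permutation p = 0.00133, adjusted p = 0.0576, rho = −0.68, −0.57 without the 2 farthest libraries). With the myelin score it had r = 0.64 (permutation p = 0.00266, adjusted p = 0.0788, rho = 0.63, 0.48 without the 2 farthest) and with the astrocyte score r = −0.59 (permutation p = 0.00717, adjusted p = 0.117, rho = −0.60, −0.47 without the 2 farthest). Meningeal markers summed to 74.8 to 242 CPM with melanoma and 137 to 432 CPM with melanoma plus ICI, 1 of 7 higher at unadjusted p under 0.05, beside 5.5% of all genes in either direction. All 6 myelin markers had fitted values below 0 in this contrast, 0 at unadjusted p under 0.05, with a median of −0.37 and sums of 6258 to 8483 CPM with melanoma and 2893 to 8037 CPM with melanoma plus ICI. The part of these cell types in the Rbm3 values was not tested.

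Levels of single mice tied some members together. Over the 45 pairs of members, 12 had an adjusted permutation p under 0.05 for Pearson's r of log2 CPM over 20 libraries, 10 of them positive and 2 negative, and 8 of the 12 also did so by Spearman's rho. All shares of one library come from one total, and the design puts 4 group means into each r, so r with group means subtracted is given beside the pairs past the threshold that are described here. Hspa1a and Hspa1b had r = 0.92 and rho = 0.87 (permutation p = 1e-05 for both, the smallest that 100000 resamples give, adjusted p = 0.0003), 0.83 without the 2 libraries farthest from the median and 0.87 with group means subtracted.

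The Hsp110 gene followed the inducible Hsp70 genes, with which it shares no 75-base stretch. Hsph1 had r = 0.84 with Hspa1b (permutation p = 2e-05, adjusted p = 0.0003, rho = 0.88), which was 0.82 without the 2 farthest libraries and 0.88 with group means subtracted. With Hspa1a, Hsph1 had r = 0.79 (permutation p = 2e-05, adjusted p = 0.0003, rho = 0.85), and 0.76 with group means subtracted. Dnajb1 had r = 0.73 with Hspa1a (permutation p = 0.00046, adjusted p = 0.00345), and 0.64 with group means subtracted, but rho was only 0.51 (adjusted p = 0.0982). Hsph1 and Dnajb1 had r = 0.52 (permutation p = 0.0204, adjusted p = 0.0656, rho = 0.40), so this pair missed the threshold. Hspa8 and Hsp90aa1 had r = 0.77 (permutation p = 0.00016, adjusted p = 0.00144, rho = 0.88), which was 0.60 without the 2 farthest libraries, 0.77 with group means subtracted and 0.88 without control replicate 4 and melanoma plus ICI replicate 1.

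Cirbp was negatively correlated with Hsph1 and Hspa1b, though not in every mouse: melanoma plus ICI replicate 1, with the highest Hsph1 of all, also had the highest Cirbp of its group. Hsph1 and Cirbp had r = −0.61 (permutation p = 0.00432, adjusted p = 0.0216, rho = −0.69), and r was −0.67 without the 2 farthest libraries, −0.75 without control replicate 4 and melanoma plus ICI replicate 1, and −0.53 with group means subtracted. Hspa1b and Cirbp had r = −0.57 (permutation p = 0.0112, adjusted p = 0.0458, rho = −0.68), −0.49 without the 2 farthest, −0.65 without that same pair of libraries and −0.50 with group means subtracted. With the replicate number as a block it was −0.41 (permutation p = 0.0722), so this pair missed the threshold there. Rbm3 had r = 0.04 with Hsph1 (permutation p = 0.875, adjusted p = 0.895, rho = 0.03). Cirbp and Rbm3 had r = 0.25 (permutation p = 0.297, adjusted p = 0.393, rho = 0.21), which was 0.03 without control replicate 4, high in both, 0.42 with group means subtracted and 0.46 with the replicate number as a block. Permutation p-values with the block treat the residuals as free after group and replicate means were taken out. They are therefore too small, and they place no pair under the threshold.

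The small heat shock protein gene Hspb1 was correlated with Hspa5 and with the inducible Hsp70 genes. Hspa5 and Hspb1 had r = 0.75 (permutation p = 9e-05, adjusted p = 0.00101, rho = 0.69), 0.62 without the 2 farthest libraries and 0.60 with group means subtracted. Hspb1 had r = 0.63 with Hspa1a (permutation p = 0.0028, adjusted p = 0.0158, rho = 0.64), 0.51 without the 2 farthest libraries and 0.68 with group means subtracted. With Hspa1b it had r = 0.56 (permutation p = 0.0111, adjusted p = 0.0458, rho = 0.51), 0.35 without the 2 farthest and 0.52 with group means subtracted. Hspa5 and Hsph1 had r = 0.23 (permutation p = 0.327, adjusted p = 0.398, rho = 0.23). Whether these correlations differ from each other was not tested.

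**Figure D4:**
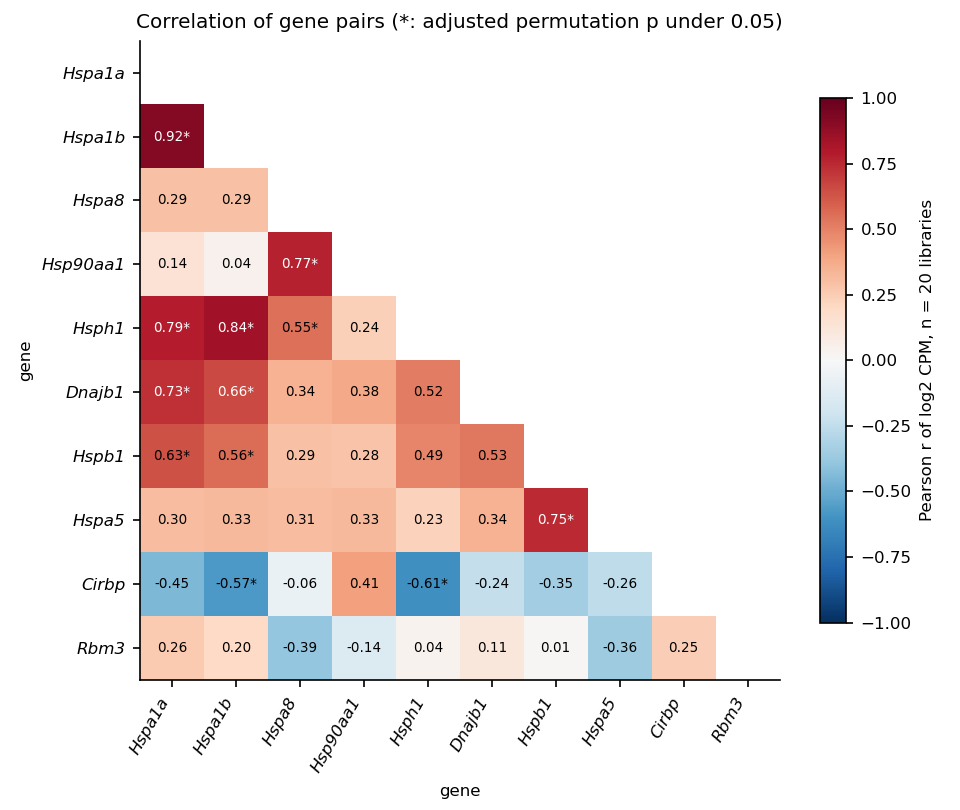
Pearson r of log2 CPM over 20 libraries for the 45 pairs of the 10 genes, coloured from −1 to 1, with an asterisk where the adjusted permutation p is under 0.05. Hspa1a, Hspa1b and Hsph1 form a block of r from 0.79 to 0.92, and the only negative pairs with an asterisk are Cirbp with Hsph1 and with Hspa1b.

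**Figure D5:**
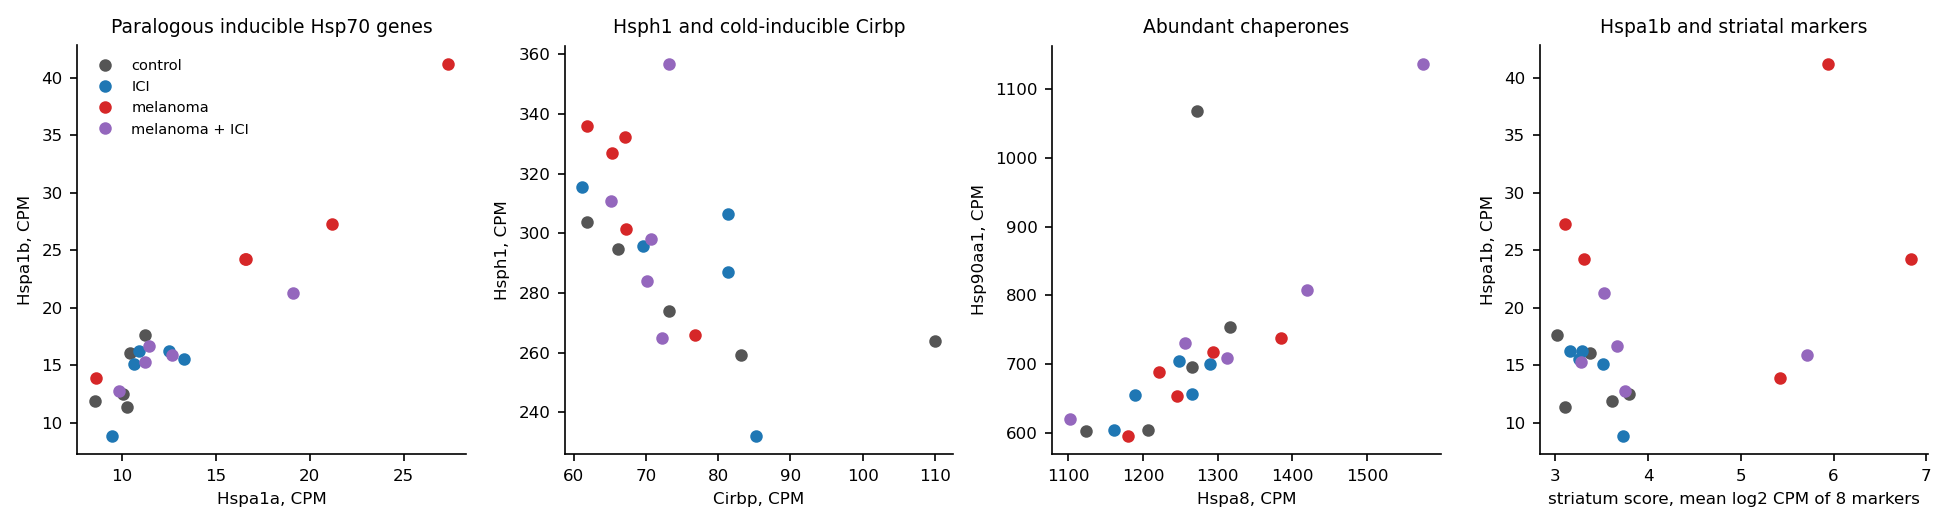
CPM of 1 gene against another in the 20 libraries, coloured by group, and in the last panel Hspa1b CPM against the mean log2 CPM of 8 striatal markers. Hspa1a and Hspa1b are high in the same libraries, Cirbp is highest at 110.1 CPM in a library with low Hsph1, and the 2 melanoma libraries without high striatal markers have 27.3 and 24.3 CPM of Hspa1b, against 13.9, 24.2 and 41.2 CPM in the 3 with them.

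The genes most like a member were sought among 15465 genes of at least 1 CPM on average by Pearson's r over the 20 libraries after subtracting group means. For Hsph1 they were Nr4a3 at 0.87, Zfp454 at 0.83, Dusp5 at 0.81, Cdc42se1 at 0.78 and Atf3 at 0.77, and the lowest were Engase at −0.77, Atp11b at −0.74 and Gm43031 at −0.73. Nr4a3 and Dusp5 are activity-induced genes and Atf3 is a stress-induced transcription factor. With the score of all 17 immediate early genes read below, Hsph1 had only r = 0.39 (permutation p = 0.0879, adjusted p = 0.394), and 0.31 with group means subtracted. For Cirbp they were Pigt at 0.91, Coq7 at 0.87, Emc9 at 0.86, Ppcs at 0.85 and Egfl7 at 0.85, and the lowest were Dusp19 at −0.88, Zfp84 at −0.87 and Gm21992 at −0.87. For Hspa5 they were Mut at 0.80, Akip1 at 0.75, Tmem47 at 0.75, Pdia3 at 0.71 and Mgst1 at 0.71, of which Pdia3 is a disulphide isomerase of the endoplasmic reticulum. For Hspb1 they were Kcnk13 at 0.78, Pak2 at 0.77, Sdf2l1 at 0.76, Dse at 0.75 and P4hb at 0.74, of which Sdf2l1 and P4hb act in folding in the endoplasmic reticulum. These are the extremes of many values and carry no test.

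Of 27 further heat shock genes, 26 were tested, Hspb7 being too low. In ICI against control, 3 of 26 were lower and 0 higher at unadjusted p under 0.05, where 3.15% of all genes were lower. The 3 were Hspa1l, Cryab and Serpinh1, 7 of 26 fitted values were above 0, and the median was −0.08 against −0.01. In melanoma against control, 0 of 26 were higher and 1 was lower at unadjusted p under 0.05, beside 5.11% of all genes in either direction. The median log2 fold change was −0.05 against −0.01 over all genes. The lower one was Hspa1l, at −0.53 (SE 0.15, unadjusted p = 0.00165, adjusted p = 0.642). In melanoma plus ICI against control, 1 was higher and 1 lower, beside 2.38% of all genes in either direction. In melanoma plus ICI against ICI, which shares the ICI mice, 3 of 26 were higher and 1 lower, with a median of 0.14 against 0.02, where 8.63% of all genes reached unadjusted p under 0.05. Serpinh1, the collagen chaperone Hsp47, which was at −0.44 (SE 0.21) in ICI against control, was at 0.62 (SE 0.21, unadjusted p = 0.00734), Hspb8, a partner of Bag3 in clearing aggregates, at 0.34 (SE 0.13, unadjusted p = 0.0160), and Hspa2 at −0.35 (SE 0.14, unadjusted p = 0.0189). The regulator Hsf1 held 49.6 ± 3.41 CPM in control, 48.5 ± 2.61 with ICI, 48.9 ± 2.60 with melanoma and 46.0 ± 3.26 with melanoma plus ICI. A list of 5 genes held heat shock factors and Hsbp1, which encodes a protein that binds them. Among these, Hsf4, known mainly from the lens, was the one with the smallest p in 5 of the 6 contrasts. Its log2 fold change was −0.43 (SE 0.18, unadjusted p = 0.0238) in ICI against control, 0.41 (SE 0.17, unadjusted p = 0.0308) in melanoma plus ICI against melanoma and 0.55 (SE 0.18, unadjusted p = 0.00556) in melanoma plus ICI against ICI, with adjusted p of 0.766, 0.825 and 0.563 by edgeR.

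Other chaperone groups gave fewer values. Among 15 Hsp90 genes and co-chaperones, 0 reached unadjusted p under 0.05 when melanoma was set against control, beside 5.11% of all genes. When melanoma plus ICI was set against melanoma, where 5.5% of all genes reached it, 2 were higher and 1 lower, namely Stip1 at 0.19 (SE 0.087) and St13 at 0.14 (SE 0.064), which hand clients from Hsp70 to Hsp90, and Fkbp5, a glucocorticoid-induced co-chaperone, at −0.55 (SE 0.17, unadjusted p = 0.0038). Among 8 mitochondrial chaperones and proteases, 0 reached it in any contrast. A list of 8 genes held cold-shock domain proteins, RBM relatives and the reticulon Rtn3. Of these, 1 was higher in melanoma against control, Carhsp1 at 0.42 (SE 0.19), and 2 were lower in melanoma plus ICI against melanoma, Carhsp1 at −0.49 (SE 0.19) and Rbmx at −0.14 (SE 0.061). The shares of all genes were 2.7% higher in the former and 2.87% lower in the latter. Rbmx was also the 1 lower gene of this list in melanoma plus ICI against ICI, at −0.13 (SE 0.061), and in the interaction, at −0.20 (SE 0.086). Of all genes, 8.63% reached unadjusted p under 0.05 in either direction in the former and 4.28% were lower in the latter.

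Clock and activity genes were read because body temperature and neuronal firing are known to move members of this set, and the labels give no hour of harvest. In melanoma against control, 3 of 16 clock genes were higher and 1 lower at unadjusted p under 0.05, beside 5.11% of all genes in either direction and 2.7% higher. Ciart was at 0.61 (SE 0.24), Per1 at 0.56 (SE 0.23) and Arntl at −0.27 (SE 0.10), with adjusted p of 0.877. In the interaction, 5 of 16 were lower and 1 higher, beside 4.28% and 5.99% of all genes, 2 of 16 fitted values were above 0 and the median was −0.26. Over the 20 libraries, Rbm3 had r = 0.55 with the clock score (permutation p = 0.0122, adjusted p = 0.135, rho = 0.52, 0.47 without the 2 farthest libraries). Hspa1b had r = 0.23 with that score (permutation p = 0.34, adjusted p = 0.71, rho = 0.17). The abundant chaperones had the opposite sign, with r = −0.52 for Hspa8 (permutation p = 0.0202, adjusted p = 0.188, rho = −0.59, −0.45 without the 2 farthest) and r = −0.44 for Hsp90aa1 (permutation p = 0.0550, adjusted p = 0.311, rho = −0.61, −0.45 without the 2 farthest). Cirbp had r = −0.14 with the clock score (permutation p = 0.554, adjusted p = 0.82, rho = −0.02). The score averages genes that moved in opposite directions in melanoma against control, such as Per1 and Arntl, so it does not give clock phase. Of the immediate early genes, 1 of 17 was higher at unadjusted p under 0.05 in melanoma against control, beside 2.7% of all genes. In melanoma plus ICI against ICI, 6 of 17 were higher, beside 4.12% of all genes. In ICI against control, which shares the ICI mice with the latter, 3 of 17 were lower, beside 3.15% of all genes, 4 of 17 fitted values were above 0 and the median was −0.53. Dnajb1 had r = 0.67 with their score (permutation p = 0.00126, adjusted p = 0.0576, rho = 0.61), 0.63 without the 2 farthest libraries and 0.56 with group means subtracted. None of the 130 relations between a member and a marker, clock or activity score had an adjusted p under 0.05.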

How the data were processed

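Per the labels, the deposited values are raw counts per gene for 1 hippocampus per library, and per the file headers the tables give gene coordinates, strand and length in the layout of featureCounts. STAR 2.5.2b and DESeq2 1.16.1 are named in the submitters' processing notes, and the counter, genome build, annotation release, strand use and handling of multi-mapping reads are not given in the sources used here. Of the 49671 gene identifiers, 49412 occur in GENCODE M21 (GRCm38), from which symbols were taken, and all 10 members have the same start and end there. Without known strand use, reads of Rbm3 and of the opposite-strand gene Rbm3os, which held 0.539% as many counts, cannot be told apart.

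From the counts, genes were kept by filterByExpr (minimum count 10, minimum total 15), which left 18427. Libraries were scaled by TMM (factors 0.9555 to 1.043). Quasi-likelihood tests in edgeR 4.0.16 under R 4.3.3 used all 20 libraries, 1 mean per group and no covariate, with Benjamini-Hochberg adjustment over all genes and a threshold of 0.05. The SE is the size of the log2 fold change divided by the square root of F. Log2 CPM used a prior count of 2. Correlations used two-sided permutation tests with 100000 resamples. Only the edgeR fit was tried on simulated counts, in melanoma plus ICI against control. Alternatives were size factors, DESeq2 1.42.0, voom in limma 3.58.1, no filter, the replicate number as a block, only the 2 groups compared, the summed Hspa1 pair, a prior count of 0.5 for correlations, and libraries left out.

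Groups come from the labels, and replicates are separate mice. Library pairs within a group differed by a chi-square of 10.5 to 120 per gene over 40 pairs, so none agreed within sampling noise. Members and gene lists were chosen with earlier results of these data known. The text names all 10 members. It gives fold changes for members at unadjusted p under 0.05, or the smallest p, and at most 3 genes per list and contrast. Values given for other genes and contrasts were chosen after they were seen.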

Additional observations from a re-analysis of the deposited data

Results flagged for a closer look

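Of the 40 sets of 5 libraries formed by the 10 genes and 4 groups, 1 held a library far from the rest. Hspa1b measured 8.89 CPM in ICI replicate 5, while the other ICI libraries lay between 15.1 and 16.2 CPM, and the gap was 0.845 of the whole range, above Dixon's critical value of 0.71. Chance gives about 5% of such sets, so 1 in 40 is no more than chance gives. In the same library Hsph1 was the lowest of all 20 at 232 CPM and Cirbp the highest of its group at 85.3 CPM. The submitters' library names give the number 64 both to ICI replicate 5 and to melanoma plus ICI replicate 1. The latter had the highest Hspa1b of its group, 21.3 CPM, and the highest Hsph1 of all libraries, 357 CPM.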

How the results depend on the processing

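The 15 fold changes of members at unadjusted p under 0.05, or with the smallest p, gave 425 values under the alternatives, and 424 kept their direction and their side of the adjusted threshold, 0 reversed and 1 newly passed it. That one was Rbm3 in melanoma plus ICI against melanoma with voom, the 1 member called there and the only one among 1718 member tests. The count of all genes called, 0 throughout in the reported fit, was 1 with DESeq2 for ICI against control. For melanoma against control it was 8 with DESeq2, 1 with voom, 3 with only the 2 groups, and 0 to 3 leaving out 1 library. For melanoma plus ICI against melanoma it was 25 with voom, 1 without the 4 libraries high in striatal markers (an alternative chosen after the data were seen), and 0 to 12 leaving out 1 library, the 12 without melanoma plus ICI replicate 3. For melanoma plus ICI against ICI it was 9 with DESeq2. For the interaction it was 47 with DESeq2, 19 with voom, 1 without control replicate 4 and melanoma plus ICI replicate 1 together, and 0 to 11 leaving out 1 library, the 11 without melanoma plus ICI replicate 3. The cause of these differences was not tested. Members at unadjusted p under 0.05 numbered 0 to 2 in ICI against control, 0 without control replicate 2 and 2 without ICI replicate 4, where 1762 and 977 of all genes did so. They numbered 2 in melanoma plus ICI against control and 5 in melanoma plus ICI against ICI without melanoma plus ICI replicate 3, beside 482 and 1475 of all genes. Without the 4 libraries high in striatal markers these counts were 1 and 6, beside 405 and 1272 of all genes. In the interaction they numbered 2 with voom, beside 2340 of all genes, and 1 to 4 leaving out 1 library, 1 without control replicate 1, ICI replicate 3, or melanoma plus ICI replicate 4 or 5, beside 1703, 1622, 1797 and 1800 of all genes. All genes at unadjusted p under 0.05 ranged from 602 to 1762 in ICI against control, from 530 to 1592 in melanoma against control, from 261 to 1089 in melanoma plus ICI against control, from 727 to 2746 in melanoma plus ICI against melanoma, from 901 to 2353 in melanoma plus ICI against ICI, and from 1299 to 2908 in the interaction.

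The correlation of Hsph1 with Dnajb1 was 0.369 with group means subtracted, 0.392 without control replicate 4 and melanoma plus ICI replicate 1, 0.395 without the 2 farthest libraries, and 0.385 to 0.582 leaving out 1 library. Replicate numbers did not pair the mice: same-numbered libraries of different groups correlated at −0.35 to 0.528 over 30 pairs, 10 of which exceeded 0.1, and 6 of 20 libraries correlated best with their own number. With the replicate number as a block, the count of genes called was 0 in every contrast, and Hspa1b in melanoma against control had 0.92 (adjusted p = 0.746 by edgeR). Members at unadjusted p under 0.05 then numbered 1, 3, 0, 2, 3 and 3 in the contrasts as listed above for all genes, beside 917, 901, 345, 972, 1471 and 1728 of all genes. Under that block Cirbp with Rbm3 had r = 0.460 (permutation p = 0.04) and Hspa1b with Cirbp r = −0.414 (permutation p = 0.0722). Both p-values permute residuals as if no group or replicate means had been taken out, so they are too small and place neither pair under 0.05. With 5 mice a group and low counts for Hspa1a, Hspa1b and Hspb1, a p that misses the threshold does not show that levels were alike.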
